A study of Mus musculus with 10 samples.

Results

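The subunits of Polycomb repressive complex 2 (PRC2) were examined in the ventral hippocampus (vHpc) of ovariectomized (OVX) female mice. They were chosen by name as the 4 core subunits and the histone binder of the complex (Ezh1, Ezh2, Eed, Suz12 and Rbbp4) and 5 accessory subunits (Jarid2, Aebp2, Mtf2, Phf1 and Phf19). All 10 were among the 24421 genes of the expression table, and all 10 passed the filter for testing, an average of 0.5 CPM or more, which 15081 genes passed. CPM are reads per 1000000 reads assigned to genes in a library. The choice was by name and used no threshold on expression, but it was made with earlier results of these data known.

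PRC2 is the enzyme complex that methylates a lysine in the tail of histone H3, a mark found at silenced developmental genes. Its catalytic subunit is either Ezh1 or Ezh2, and in general Ezh2 is the form of dividing precursors while Ezh1 is the form of cells that have left the cell cycle, such as neurons. The accessory subunits bring the complex to chromatin, in particular to CpG islands, and define alternative versions of it.

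The study crossed genotype with estradiol. WT mice were compared with mice heterozygous for the BDNF Val66Met allele (Het-Met), a change in the prodomain of brain-derived neurotrophic factor, all females of the C57BL/6 strain. Every mouse was ovariectomized at 70 to 80 days of age and given 2 weeks to recover. For the following 6 weeks the drinking water held either 300 nM 17β-estradiol (E2, about 0.7 µg per day) in 0.1% ethanol, or 0.1% ethanol alone (vehicle), so that no group was gonadally intact. Each library was made from the RNA of 2 pooled animals. The 10 libraries analysed were 4 of OVX WT mice (2 vehicle, 2 E2) and 6 of OVX Het-Met mice (3 vehicle, 3 E2). The protocol describes 3 pools per group, so both WT groups had fewer libraries than described. With groups of this size, intervals are wide, and p-values measure the spread among pooled libraries rather than among single animals.

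Gene-assigned reads numbered 19820184 to 23267410 per library, and 1 read was worth 0.0430 to 0.0505 CPM. The 7 neuronal markers summed to between 11121 and 12212 CPM and the 5 hippocampal markers to between 564 and 702 CPM, so every library carried neuronal and hippocampal markers. Whether the tissue was ventral was not tested. The 4 thalamus markers summed to between 72.2 and 112 CPM. Markers of the choroid plexus, the secretory epithelium of the ventricles, varied far more than the neuronal markers. Their summed level over 10 genes, none at 0, was 149.6 and 1070 CPM in vehicle-treated WT, 1883 and 2473 CPM in E2-treated WT, 1454 to 3251 CPM in vehicle-treated Het-Met and 261 to 1536 CPM in E2-treated Het-Met libraries. The 5 pituitary markers also varied, from 2.09 to 209.9 CPM, and stood at 3.24 and 95.9 CPM in replicates 1 and 3 of vehicle-treated WT. The 5 ependyma markers summed to 16.0 and 14.7 CPM in vehicle-treated and 28.1 and 24.9 CPM in E2-treated WT libraries, and to 15.7 to 24.7 CPM in Het-Met libraries. Of these 5 genes, 1 was called in at least 1 comparison. The part of thalamus, pituitary and ependyma RNA in the results was not tested. In bulk tissue, fewer cells of a type and less RNA per cell cannot be told apart.

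The start regions of the PRC2 genes were searched for sequences tied to estrogen receptors and to the cell cycle. All 10 genes matched the RefSeq promoter table (GRCm38.p6), which holds 250 bases before and 50 after each annotated start. The palindromic estrogen response element, searched as GGTCA, any 3 bases and TGACC, was in none of the members' windows and in 0.07% of all 32851 windows. The E2F spelling, searched on both strands as TTTCCCGC, TTTCGCGC, TTTGCCGC or TTTGGCGC, was found in the windows of 3 of the 10 genes, Ezh2, Suz12 and Phf19. Jarid2 and Mtf2 had 2 windows each, Aebp2 3 and the other genes 1, while the background shares count windows, not genes. The spelling was in 2.26% of all windows and in 5.43% of the 9544 windows with a CpG observed-to-expected ratio of at least 0.7. E2F factors drive genes of the cell cycle. The 3 windows are shown with the match in capitals, beside the window of Ezh1, the other catalytic gene, which held no match.
Ezh2, chr6:47594981-47595280, minus strand: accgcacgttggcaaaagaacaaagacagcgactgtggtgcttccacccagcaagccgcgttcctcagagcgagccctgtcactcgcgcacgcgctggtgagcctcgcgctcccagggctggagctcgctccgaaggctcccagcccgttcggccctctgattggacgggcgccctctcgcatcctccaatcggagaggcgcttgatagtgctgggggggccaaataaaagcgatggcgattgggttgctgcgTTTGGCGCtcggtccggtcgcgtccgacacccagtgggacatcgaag
Suz12, chr11:79992856-79993155, plus strand: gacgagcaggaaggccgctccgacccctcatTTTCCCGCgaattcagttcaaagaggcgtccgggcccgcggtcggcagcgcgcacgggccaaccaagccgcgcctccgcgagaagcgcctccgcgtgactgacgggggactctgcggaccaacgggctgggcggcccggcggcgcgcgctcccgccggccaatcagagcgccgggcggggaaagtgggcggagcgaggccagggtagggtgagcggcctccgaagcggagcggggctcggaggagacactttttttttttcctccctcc
Phf19, chr2:34913927-34914226, minus strand: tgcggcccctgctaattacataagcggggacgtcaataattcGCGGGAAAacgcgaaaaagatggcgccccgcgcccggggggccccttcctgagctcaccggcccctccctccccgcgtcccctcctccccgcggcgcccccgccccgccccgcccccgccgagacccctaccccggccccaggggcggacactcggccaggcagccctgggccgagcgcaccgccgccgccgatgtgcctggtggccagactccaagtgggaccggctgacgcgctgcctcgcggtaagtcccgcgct
Ezh1, chr11:101226414-101226713, minus strand: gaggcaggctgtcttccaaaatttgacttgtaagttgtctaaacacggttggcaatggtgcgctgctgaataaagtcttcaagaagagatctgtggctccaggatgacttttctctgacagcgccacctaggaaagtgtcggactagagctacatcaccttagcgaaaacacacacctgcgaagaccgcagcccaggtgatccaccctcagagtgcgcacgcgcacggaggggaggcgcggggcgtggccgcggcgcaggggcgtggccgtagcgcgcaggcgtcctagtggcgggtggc

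The match lay on the printed strand in Ezh2 and Suz12 and on the opposite strand in Phf19. In the 300-base windows, of which base 251 is the annotated start, the Ezh2 match TTTGGCGC spanned bases 254 to 261, that of Suz12 bases 32 to 39 and that of Phf19 bases 43 to 50. The Ezh1, Ezh2, Suz12 and Phf19 windows all had a high CpG ratio (0.88, 1.00, 1.09 and 0.95, against a median of 0.38 over all windows). The cyclic AMP response element TGACGTCA was in no member's window and in 1.79% of all windows. These are matches of letters, and no binding was measured.

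The level of the subunits spanned a wide range in the vHpc. As the mean over 10 libraries of CPM per kilobase of the gene's combined exons, the levels were 14.8 for Phf1, 13.2 for Ezh1, 11.8 for Mtf2, 11.1 for Rbbp4, 7.95 for Suz12, 5.93 for Aebp2, 4.09 for Jarid2, 3.35 for Eed, 0.697 for Ezh2 and 0.290 for Phf19. Neighbours among the 4 highest genes overlapped in their range over libraries, as did Jarid2 and Eed, and the other neighbours did not overlap. Among 14974 tested genes with a length, the median level was 5.20 CPM per kilobase, and the members ran from the 77.2 percentile for Phf1 to the 13.6 percentile for Ezh2 and the 5.12 percentile for Phf19. With the median annotated transcript length in place of the combined exons, Ezh1 came first and Phf1 seventh, while Ezh2 and Phf19 stayed last.

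**Figure D1:**
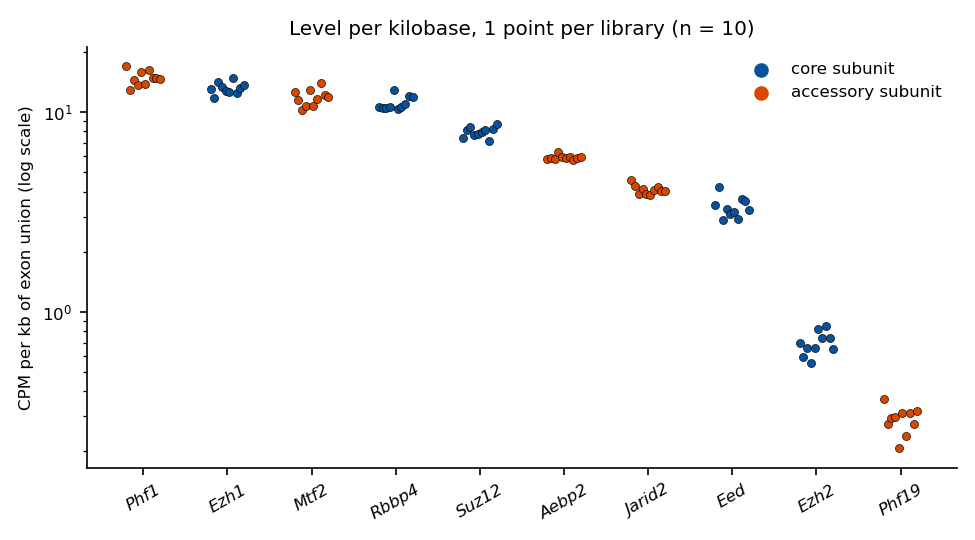
Level of each PRC2 subunit in CPM per kilobase of combined exons (log axis), 1 point per library (n = 10), core subunits in blue and accessory subunits in orange. Ezh2 (mean 0.697) and Phf19 (mean 0.290) lie below the other 8 subunits, which have means between 3.35 and 14.8.

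The balance of the alternative catalytic subunits was strongly on the side of Ezh1. Per kilobase, Ezh1 exceeded Ezh2 by 14.6-fold to 24.2-fold over the 10 libraries, with a median of 19.5-fold, and by a median of 23.0-fold with the median transcript length. Ezh2 made up 5.10% and 4.79% of the combined Ezh1 and Ezh2 level in vehicle-treated WT, and 4.46% and 3.97% in E2-treated WT libraries. It made up 4.94%, 6.11% and 4.74% in vehicle-treated Het-Met and 6.42%, 5.28% and 4.59% in E2-treated Het-Met libraries. Both E2-treated WT libraries thus had a lower share than the other 8 libraries, and the remaining 3 groups overlapped. The share was not tested. Markers of neurogenic and dividing cells, which include precursors of the dentate gyrus, summed over 7 genes to between 61.3 and 87.9 CPM, with the highest value in an E2-treated Het-Met library (replicate 3) whose Ezh2 share was 4.59%. A similar imbalance held between 2 of the Polycomb-like proteins: Mtf2 exceeded Phf19 per kilobase by 34.2-fold to 62.0-fold, with a median of 39.6-fold.

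No PRC2 subunit passed the test in any of the 6 comparisons made: E2 against vehicle in OVX WT, E2 against vehicle in OVX Het-Met, Het-Met against WT under vehicle, the same under E2, the interaction of genotype and E2, and Het-Met against WT averaged over both treatments. The call needed an adjusted p-value under 0.05 (limma, Benjamini-Hochberg over all 15081 genes) with a change of more than 1.3-fold, limits taken from the study's methods, and 0 of 10 members met it in each. The background of such calls was low. Of all genes tested, 0.0133% (2 genes) were called for E2 in WT, 0% (0 genes) for E2 in Het-Met, 0.00663% (1 gene) for genotype under vehicle, 0.0265% (4 genes) for genotype under E2, 0.0729% (11 genes) for the interaction and 0.0265% (4 genes) for genotype over both treatments. A list of 10 genes with no call is therefore near the background. On the recovered reads, neither DESeq2 nor the quasi-likelihood test of edgeR called any of the 10. The comparisons share libraries, since each control group serves in more than 1 of them.

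The intervals set how large a change could have been missed. For E2 in WT, all 10 members had a 95% interval that stayed within a 1.5-fold change in either direction and 6 stayed within 1.3-fold. For E2 in Het-Met, 10 stayed within 1.5-fold and 8 within 1.3-fold. For genotype under vehicle the counts were 9 and 7, for genotype under E2 9 and 6, and for genotype over both treatments 10 and 8. For the interaction, a difference of differences, 7 stayed within 1.5-fold and 4 within 1.3-fold, and the farthest bound was 1.83-fold for Phf19. For the members counted, a change larger than the limit on this scale lies outside the 95% interval. A smaller change can lie inside the interval or outside it.

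**Figure D2:**
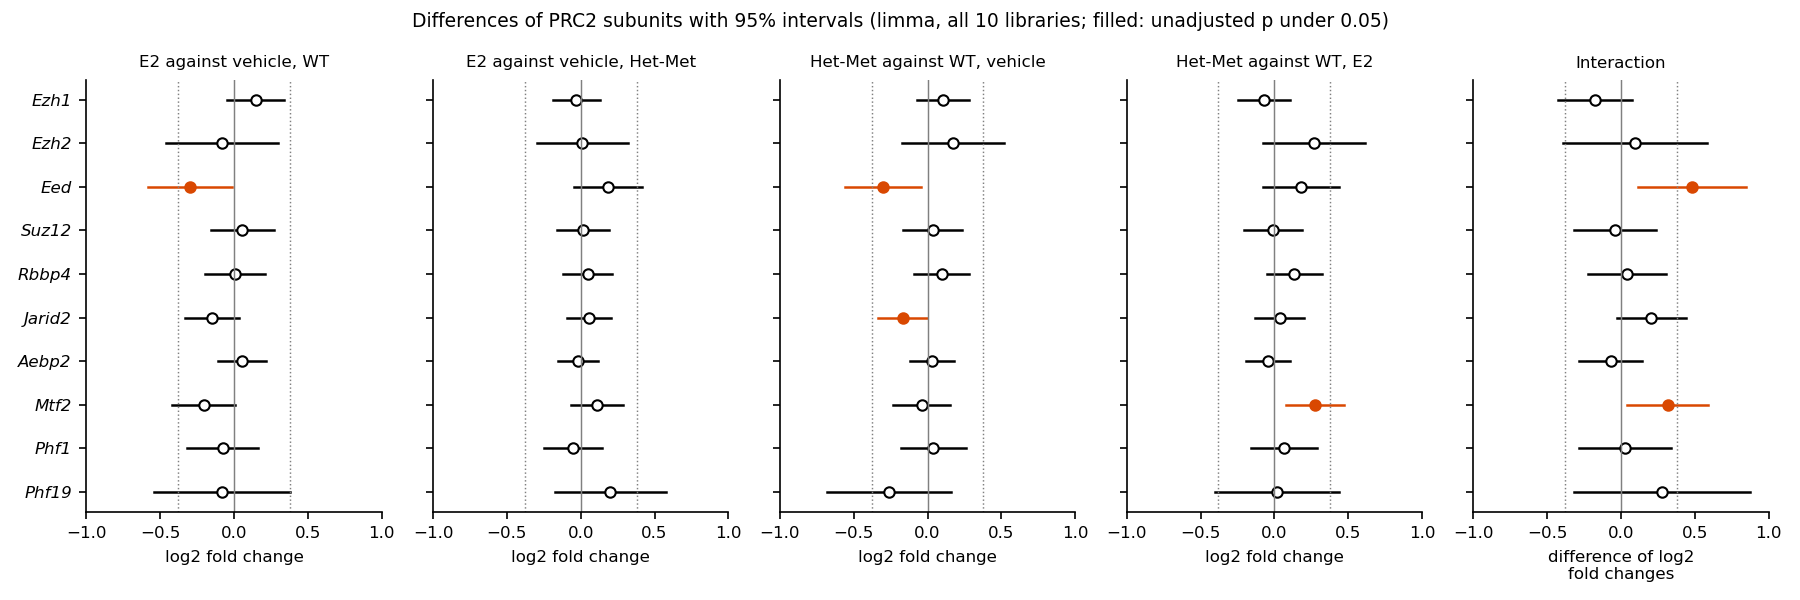
Difference of each PRC2 subunit on the log2(CPM + 0.5) scale with its 95% interval in 5 comparisons (limma, 10 libraries); dotted lines mark a 1.3-fold change, and filled orange points have an unadjusted p under 0.05. The largest difference is that of Eed in the interaction (0.48), and none of the filled points passed the adjustment over all genes.

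Eed, the WD40 protein that binds the methylated histone tail and stimulates the enzyme (chromosome 7, 89954654 to 89980983, minus strand), had the largest log2 difference of any member with E2 in WT, for genotype under vehicle and in the interaction. Its level was 13.2 and 16.1 CPM in vehicle-treated WT and 11.0 and 12.5 CPM in E2-treated WT libraries. It was 11.9, 12.1 and 11.2 CPM in vehicle-treated Het-Met and 14.0, 13.7 and 12.4 CPM in E2-treated Het-Met libraries. Both E2-treated WT libraries lay below both vehicle-treated WT libraries, and all 3 E2-treated Het-Met libraries lay above the 3 vehicle-treated Het-Met libraries. The log2 fold change with E2 was -0.30 (SE 0.13, adjusted p = 0.999911, limma) in WT and 0.18 (SE 0.11, adjusted p = 0.931, limma) in Het-Met mice. The difference between these effects was 0.48 (SE 0.17, 95% interval 0.12 to 0.85, adjusted p = 0.670, limma), which did not pass. Under vehicle, all 3 Het-Met libraries lay below both WT libraries (-0.30, SE 0.12, adjusted p = 0.423, limma), whereas under E2 the groups overlapped (0.18, SE 0.12, adjusted p = 0.576, limma).

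A single library carried part of the Eed pattern. Replicate 3 of vehicle-treated WT had the highest Eed level. Without it, the E2 effect in WT was -0.16, the genotype difference under vehicle was -0.16 and the interaction was 0.34. Its pituitary and choroid plexus sums, 95.9 and 1070 CPM, were both the higher of its group. Replicate 1 of E2-treated WT, however, had a pituitary sum of 119.7 CPM and the lowest Eed level. The part of these tissues in the Eed level was not tested. Without replicate 1 of E2-treated WT, the E2 effect in WT was -0.21 and the interaction 0.39. Between groups, the Eed mean was higher where the median choroid plexus sum was lower. These groups were vehicle-treated WT (14.6 ± 2.03 CPM, SD, n = 2) and E2-treated Het-Met (13.4 ± 0.887 CPM, SD, n = 3). The means of E2-treated WT (11.8 ± 1.10 CPM, SD, n = 2) and vehicle-treated Het-Met (11.7 ± 0.483 CPM, SD, n = 3) went with the higher medians. Within groups the order varied. In vehicle-treated WT, sums of 149.6 and 1070 CPM stood beside Eed at 13.2 and 16.1 CPM. In E2-treated Het-Met, sums of 261, 432 and 1536 CPM stood beside 12.4, 13.7 and 14.0 CPM. In E2-treated WT the library with the higher sum had the lower Eed level, and vehicle-treated Het-Met had no single order. With the mean log2 level of the choroid plexus markers as a covariate, the Eed interaction was 0.76 (adjusted p = 0.999961, limma). The marker level differs between groups in the pattern of an interaction, so this fit cannot tell the marker level and the interaction apart.

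**Figure D3:**
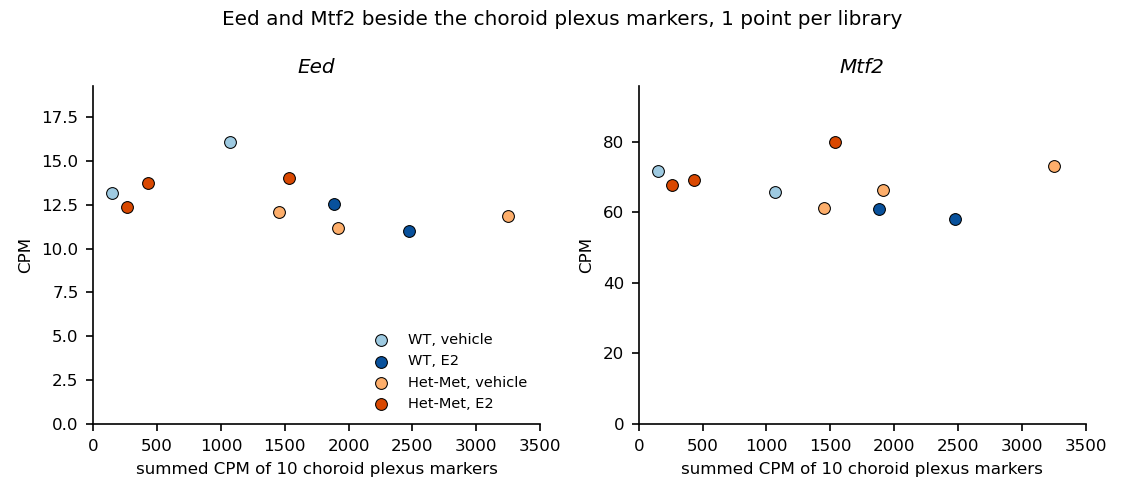
CPM of Eed (left) and Mtf2 (right) against the summed CPM of 10 choroid plexus markers, 1 point per library, coloured by group. Vehicle-treated WT libraries and 2 of the 3 E2-treated Het-Met libraries have sums of at most 1070 CPM, and all E2-treated WT and vehicle-treated Het-Met libraries have sums of at least 1454 CPM.

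Suz12, the scaffold that holds the complex together (chromosome 11, 79993106 to 80034123, plus strand), was level across the groups. It stood at 36.6 and 40.0 CPM in vehicle-treated WT, 41.8 and 38.0 CPM in E2-treated WT, 38.3, 39.3 and 40.1 CPM in vehicle-treated Het-Met and 35.5, 40.8 and 42.9 CPM in E2-treated Het-Met libraries. The groups overlapped in every comparison, and the log2 fold changes lay between -0.043 for the interaction and 0.058 for E2 in WT.

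Ezh1 (chromosome 11, 101191115 to 101226463, minus strand) was at 97.0 and 87.7 CPM in vehicle-treated WT and 105 and 99.5 CPM in E2-treated WT libraries, so that the E2 libraries lay above the vehicle libraries. The log2 fold change was 0.15 (SE 0.091, adjusted p = 0.999911, limma). In vehicle-treated Het-Met libraries the level was 94.5, 94.1 and 110 CPM and in E2-treated Het-Met libraries 92.2, 98.6 and 101 CPM, with overlapping groups.

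Ezh2 (chromosome 6, 47530139 to 47595341, minus strand) rested on 80 to 116 reads per library. It was at 4.67 and 3.96 CPM in vehicle-treated WT, 4.40 and 3.70 CPM in E2-treated WT, 4.41, 5.50 and 4.92 CPM in vehicle-treated Het-Met and 5.68, 4.93 and 4.36 CPM in E2-treated Het-Met libraries. The Het-Met means were above the WT means under either treatment, but the libraries overlapped. Averaged over both treatments, the difference was 0.22 (SE 0.11, 95% interval -0.023 to 0.47, adjusted p = 0.345, limma).

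Rbbp4, the histone chaperone that PRC2 shares with other chromatin complexes (chromosome 4, 129307100 to 129335370, minus strand), was at 92.4 and 91.3 CPM in vehicle-treated WT and 91.6 and 93.2 CPM in E2-treated WT libraries. The 4 WT libraries thus lay within a narrow band. In vehicle-treated Het-Met libraries it was 113, 90.9 and 92.5 CPM and in E2-treated Het-Met libraries 95.8, 105 and 104 CPM. The 3 E2-treated Het-Met libraries lay above both E2-treated WT libraries (0.14, SE 0.088, adjusted p = 0.556, limma), while under vehicle 1 Het-Met library stood above all others and the groups overlapped.

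Among the accessory subunits, Mtf2, a Polycomb-like protein that binds CpG-rich DNA (chromosome 5, 108065674 to 108109004, plus strand), had the lowest unadjusted p of any member. It was at 71.7 and 65.9 CPM in vehicle-treated WT and 58.2 and 60.8 CPM in E2-treated WT libraries. In vehicle-treated Het-Met libraries it was 73.2, 61.4 and 66.3 CPM, and in E2-treated Het-Met libraries 79.8, 69.1 and 67.8 CPM. Under E2, all 3 Het-Met libraries lay above both WT libraries, and both E2-treated WT libraries lay below both vehicle-treated WT libraries. The genotype difference under E2 was 0.27 on the log2 scale (SE 0.091, 95% interval 0.079 to 0.47, adjusted p = 0.342, limma), which did not pass. The E2 effect differed between genotypes by 0.31 (SE 0.13, adjusted p = 0.809, limma), from -0.21 (SE 0.10, adjusted p = 0.999911, limma) in WT to 0.11 (SE 0.082, adjusted p = 0.964, limma) in Het-Met mice. Without replicate 1 of E2-treated WT, the lowest library, the genotype difference under E2 was 0.24, above an unadjusted p of 0.05. The interaction was 0.25 without replicate 1 of vehicle-treated WT, 0.28 without replicate 1 of E2-treated WT, 0.25 without replicate 2 of vehicle-treated Het-Met and 0.24 without replicate 1 of E2-treated Het-Met, each above that limit. With the choroid plexus markers as a covariate it was 0.36 (adjusted p = 0.992, limma).

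Jarid2, the DNA-binding Jumonji protein without demethylase activity that helps to recruit PRC2 (chromosome 13, 44729474 to 44921643, plus strand), was at 44.3 and 41.6 CPM in vehicle-treated WT and 37.7 and 39.8 CPM in E2-treated WT libraries. It was at 37.6, 37.4 and 39.6 CPM in vehicle-treated Het-Met and 41.0, 39.2 and 39.2 CPM in E2-treated Het-Met libraries. The vehicle-treated WT libraries thus lay above all the others. The genotype difference under vehicle was -0.17 (SE 0.078, adjusted p = 0.461, limma), and E2 in WT gave -0.15 (SE 0.085, adjusted p = 0.999911, limma). With the choroid plexus markers as a covariate the genotype difference was -0.16 (adjusted p = 0.754, limma), no longer under an unadjusted p of 0.05, which it kept in 11 of 23 alternatives. The marker sums of vehicle-treated WT, at most 1070 CPM, lay below those of vehicle-treated Het-Met, at least 1454 CPM. That fit therefore cannot tell the marker level and the genotype difference apart.

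Aebp2, the zinc finger cofactor of the Jarid2 form (chromosome 6, 140622663 to 140678472, plus strand), was the steadiest member. Its lowest library, 56.7 CPM, and its highest, 62.1 CPM, differed by 1.10-fold. Its residual SD on the log2 scale was at the 1.5 percentile among the 1000 tested genes nearest to it in level, and that of Jarid2 was at the 4.0 percentile. For both, the spread within groups was no wider than counting error alone would give (2.65% against 2.83% for Aebp2, 3.39% against 3.44% for Jarid2, as coefficients of variation). The 3 vehicle-treated Het-Met libraries (58.1 to 58.9 CPM) did lie above both vehicle-treated WT libraries (57.0 and 57.9 CPM), by 0.028 on the log2 scale (SE 0.070, adjusted p = 0.910, limma).

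Phf1, a Polycomb-like relative of Mtf2 (chromosome 17, 26933052 to 26937908, plus strand), was at 59.2 and 45.2 CPM in vehicle-treated WT and 50.4 and 47.7 CPM in E2-treated WT libraries. It was at 55.5, 48.1 and 56.4 CPM in vehicle-treated Het-Met libraries, and the 3 E2-treated Het-Met libraries agreed within 51.2 to 51.4 CPM. Under E2 the Het-Met libraries lay above both WT libraries, by 0.065 (SE 0.10, adjusted p = 0.838, limma). Its value is uncertain, because 39.3% of its exonic bases are also covered by exons of Cuta on the opposite strand. Cuta was at 28.9 to 40.2 CPM, and whether the counting used the strand is not given in the sources used here. For the other members no single gene shared more than 9.1% of the exonic bases, and Rbbp4 shared 9.1% and 8.94% with a gene each.

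Phf19, the third Polycomb-like protein (chromosome 2, 34893757 to 34914026, minus strand), rested on 22 to 40 reads per library. It ranged from 1.04 CPM in a vehicle-treated Het-Met library (95% Poisson interval 0.654 to 1.58 CPM, counting error only) to 1.85 CPM in a vehicle-treated WT library (1.32 to 2.52 CPM). The groups overlapped in every comparison, and the spread within groups, 14.8%, was below the 17.9% that counting error alone gives at its mean of 31.1 reads.

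**Figure D4:**
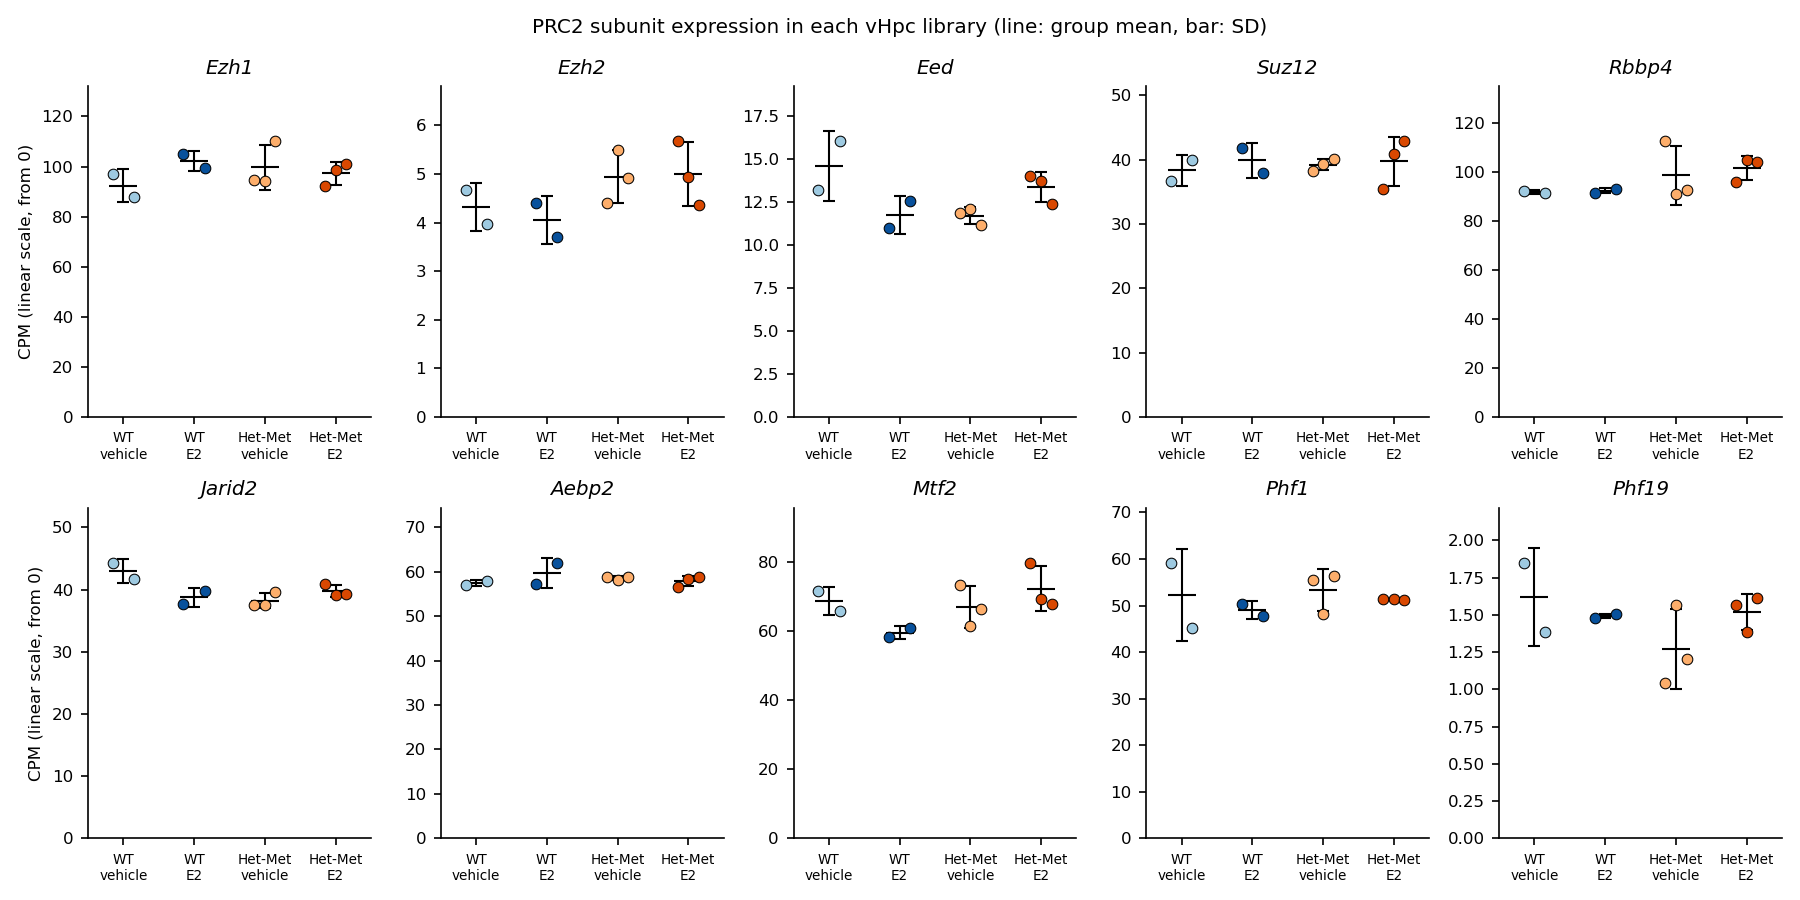
CPM (linear axes from 0) of the 10 PRC2 subunits in each library by group, with the group mean (line) and SD (bar), n = 2 for the WT groups and n = 3 for the Het-Met groups. Eed is lower in E2-treated than in vehicle-treated WT libraries and higher in E2-treated than in vehicle-treated Het-Met libraries, whereas Aebp2 stays between 56.7 and 62.1 CPM throughout.

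At an unadjusted p under 0.05, E2 in WT gave 1 of 10 members (Eed, lower) against a background of 4.04% of all genes, and E2 in Het-Met gave 0 against 5.45%. Genotype gave 2 under vehicle (Eed and Jarid2, lower) against 10.7%, 1 under E2 (Mtf2, higher) against 11.7%, and 0 over both treatments against 16.6%. The interaction gave 2 (Eed and Mtf2, both higher in Het-Met) against 5.42%. The groups did not overlap for 4 of 10 members with E2 in WT (Ezh1 higher, Eed, Jarid2 and Mtf2 lower), where 31.8% of all genes did not overlap, and for 1 with E2 in Het-Met (Eed) against 10.3%. For genotype, 3 did not overlap under vehicle against 24.7%, 3 under E2 (Rbbp4, Mtf2 and Phf1, all higher in Het-Met) against 35.8%, and 0 over both treatments against 4.36%. These shares are from 10 genes and were not tested as a set.

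The median log2 fold change of the 10 members, beside that of all tested genes, was -0.079 against -0.0026 for E2 in WT, 0.031 against 0.0044 for E2 in Het-Met, 0.031 against 0.020 for genotype under vehicle and 0.052 against 0.028 for genotype under E2. It was 0.067 against 0.0051 for the interaction and 0.015 against 0.024 for genotype over both treatments. The median kept its direction in all alternatives only for E2 in Het-Met. There it ran from 0.019 to 0.049 with 1 library left out and from 0.014 to 0.034 in the other alternatives. In the other comparisons the median changed sign in at least 1 alternative. For E2 in WT it was 0.020 without replicate 1 of vehicle-treated WT, -0.18 without replicate 3 of that group and 0.043 with the choroid plexus covariate. With that covariate it was -0.034 for the interaction and -0.00467 for genotype under E2. For genotype under vehicle it was -0.033 without replicate 3 of vehicle-treated WT. With E2, 4 members had a higher and 6 a lower mean in WT, and 7 a higher and 3 a lower mean in Het-Met mice.

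The members did not vary as a unit from library to library. Over the 10 libraries the Pearson correlation of their levels ran from -0.79 between Ezh1 and Eed to 0.59 between Eed and Jarid2, as a description only, since all values come from the same libraries. The genes most like the mean z-score of the 10 members were Hdhd3 (r = 0.946), Carns1 (0.930), Ptpn12 (0.910), Dclre1c (0.908) and Fam109a (0.908), the highest of 15081 genes searched over 10 libraries.

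None of the 24 genes of PRC1, the complex that ubiquitylates histone H2A, passed the test in any comparison, nor did any of 5 further PRC2 partners (of 7 listed, 5 in the table), the 4 genes of the H2A deubiquitinase complex PR-DUB, or the 2 demethylases that remove the PRC2 mark. The 4 PR-DUB genes had a median log2 fold change of -0.20 for genotype under vehicle and of -0.10 over both treatments, where 4 of 4 were lower, beside 0.031 and 0.015 for the PRC2 members. In PRC1, Pcgf2, the alternative to Bmi1 in the canonical complex, had group means of 44.5 CPM with vehicle and 37.5 CPM with E2 in WT, and of 42.0 CPM with vehicle and 48.3 CPM with E2 in Het-Met libraries. Its genotype difference under E2 was 0.37 (SE 0.11, adjusted p = 0.335, limma) and its interaction 0.44 (SE 0.16, adjusted p = 0.680, limma). Pcgf5, of a variant PRC1, differed by -0.42 under E2 (adjusted p = 0.417, limma), and Phc2, of the canonical PRC1, by 0.16 under vehicle (adjusted p = 0.447, limma). At an unadjusted p under 0.05, genotype gave 2 of 24 PRC1 genes under E2 against 11.7% of all genes. It gave 1 under vehicle against 10.7% and 0 over both treatments against 16.6%. The interaction gave 1 against 5.42%, E2 in WT 0 against 4.04% and E2 in Het-Met 0 against 5.45%.

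In PR-DUB, Asxl3 and Asxl2, cofactors of the deubiquitinase, differed between genotypes under vehicle by -0.27 (adjusted p = 0.421, limma) and -0.26 (adjusted p = 0.427, limma). Over both treatments they differed by -0.16 (adjusted p = 0.293, limma) and -0.17 (adjusted p = 0.267, limma). At an unadjusted p under 0.05 they were 2 of 4 PR-DUB genes in either comparison, against 10.7% and 16.6% of all genes. The list was not tested as a set. Among the PRC2 partners, Lcor differed between genotypes by -0.49 under vehicle (adjusted p = 0.445, limma) and -0.43 over both treatments (adjusted p = 0.187, limma). Rbbp7, the close relative of Rbbp4, differed by 0.12 over both treatments (adjusted p = 0.273, limma), beside 0.12 for Rbbp4 (SE 0.062, adjusted p = 0.364, limma). Sirt1, a deacetylase, differed by 0.21 with E2 in Het-Met mice (adjusted p = 0.872, limma). Of the 5 partners, 1 had an unadjusted p under 0.05 for genotype under vehicle, against 10.7% of all genes. Over both treatments 2 had it, against 16.6%, and with E2 in Het-Met mice 1, against 5.45%.

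The classical genes that PRC2 silences were at or near 0. Of 41 Hox and Cdkn2 family genes listed, all 41 were in the table, 26 had no read in any library, which allows up to 3 reads per library for each, and 40 had a mean under 0.5 CPM. The 1 that was tested, Cdkn2b, had a mean of 0.781 CPM.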

How the data were processed

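RNA of the vHpc of OVX mice was analysed from 10 libraries, each pooled from 2 animals. The libraries were made with a stranded kit and sequenced as 75-bp single-end reads. The study's notes name trimming and filtering, alignment to mm10 with TopHat2, and DESeq and DESeq2 for the authors' own tests. The annotation, the counting strand and the tool versions are not given in the sources used here. The deposited file holds CPM per gene symbol, which the authors computed as reads per 1000000 reads assigned to genes. Every value was a whole multiple of 1 read in its library (100%, tolerance 0.01), so the reads were recovered.

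The 10 members, the pathway and marker lists and the tests were chosen with earlier results of these data known. Values were log2(CPM + 0.5) for genes averaging 0.5 CPM or more, and a fold change on this scale understates that of low genes. limma 3.58.1 in R 4.3.3 fitted 4 group means with an intensity trend (6 residual and 8.90 prior degrees of freedom). Tests were two-sided, with Benjamini-Hochberg adjustment over all genes. Called genes had an adjusted p under 0.05 and a fold change above 1.3. edgeR 4.0.16 and DESeq2 1.42.0 on the recovered reads called 0 to 14 and 6 to 88 genes per comparison, against 0 to 11 with limma. Other alternatives were pseudocounts, filters, scaling, a replicate block, removal of the gene length trend, only the libraries compared, a choroid plexus covariate and each library left out. Figures used python 3.11.15 and matplotlib 3.10.9.

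Positions and exon lengths came from GENCODE vM21 on GRCm38 (mm10). Of the table's symbols, 23376 had an exact match, 651 matched through an older name and 394 stayed unmatched. Genes named are all members, genes of the Polycomb lists with an unadjusted p under 0.05 (at most 3 per list and comparison), and the 5 genes most correlated with the members' mean.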

Additional observations from a re-analysis of the deposited data

Results flagged for a closer look

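The response to E2 differed between genotypes for 2 members by the interaction term at an unadjusted p under 0.05. The effect in Het-Met minus that in WT mice was 0.48 for Eed (SE 0.17, adjusted p = 0.670, limma) and 0.31 for Mtf2 (SE 0.13, adjusted p = 0.809, limma). Neither passed the adjustment over all genes, and 5.42% of all genes reached the same unadjusted limit.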

How the results depend on the processing

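No member was called in any comparison under any alternative with adjusted p-values. With an unadjusted p and the 1.3-fold limit, 1 member, Eed, was called in the interaction. With a choroid plexus covariate, the members' median log2 fold change was 0.043 for E2 in WT, 0.072 for genotype under vehicle, -0.00467 for genotype under E2 and -0.034 for the interaction, and the cause was not tested. Leaving out 1 library at a time, the median ran from -0.18 to 0.020 for E2 in WT, from -0.033 to 0.034 for genotype under vehicle and from 0.019 to 0.21 for the interaction. Leaving out replicate 3 of vehicle-treated WT gave the lowest value for the first and second and the highest for the third. An unadjusted p under 0.05 was kept by the Eed interaction in 20 of 22 alternatives, the Mtf2 interaction in 18 of 22, the Mtf2 genotype difference under E2 in 22 of 23 and the Jarid2 genotype difference under vehicle in 11 of 23. The smallest adjusted p was 0.605 for the Eed interaction and 0.134 for the Mtf2 genotype difference (limma). Over all genes, DESeq2 called more than limma, for example 88 against 4 for genotype over both treatments and 29 against 4 for genotype under E2, where edgeR called 14. Other scalings moved the median of all genes by at most 0.024 in size.

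The replicate numbers did not pair the libraries: the deviations of 12 same-numbered pairs correlated between -0.17 and 0.083. With a replicate block the Eed interaction was 0.52 (adjusted p = 0.874, limma), 0 members were called, and the Jarid2 genotype difference under vehicle was -0.17, above an unadjusted p of 0.05. Only the libraries compared could not be used for the interaction or the average over treatments, which need all groups. Depth limits Ezh2 and Phf19, with 80 to 116 and 22 to 40 reads per library.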
